A study of Zea mays with 48 samples.

Results

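Roots treated with tunicamycin for 36 h were compared with roots harvested at 0 h, which makes up the late phase of a time course in maize seedlings. The comparison took in 3 libraries of the 36 h group and 3 of the 0 h group, chosen by the time in the library name, which is 6 of 24 libraries and 12 of 48 samples in all. The 36 h group consisted of roots of seedlings labelled as 7 days old of the inbred line B73, the maize reference line, given tunicamycin at 5 µg per ml. The 0 h group consisted of B73 roots from the same kind of bottle culture, likewise labelled as 7 days old and with tunicamycin at 5 µg per ml as the agent, for 0 h. The 48 h mock group, 3 libraries of B73 roots also labelled as 7 days old and with no agent named, served as a further control, and tunicamycin groups of 3, 6, 12, 24 and 48 h were set beside them where needed. The mock was taken at 48 h and no mock of 36 h was analysed, so at 36 h against 0 h the drug and the time spent in the bottles cannot be told apart. The sources used here do not say how many seedlings went into a library.

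Tunicamycin keeps cells from starting N-linked glycosylation, and secretory glycoproteins made without their sugars tend to misfold in the endoplasmic reticulum. Plant cells answer with the unfolded protein response, in which the membrane sensor IRE1 splices the messenger of a bZIP transcription factor while other bZIP factors are released from the membrane by proteolysis. The response is known to raise chaperones, folding enzymes and degradation factors first, and to turn towards cell death when the stress persists. Whether genes of these classes moved could not be read here, because no source used here pairs the identifiers with gene names. The root identity of the tissue could not be checked against marker genes for the same reason. Genes are therefore described by their levels, their lengths and their behaviour in libraries that had no part in calling them.

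The libraries of 36 h held 22472371 to 33489007 counted reads, those of 0 h held 16105148 to 24443472, and those of the mock held 23314150 to 25489318. The sample titles give 6 or 12 h to lanes of the libraries named for 36 h and 0 or 3 h to lanes of those named for 0 h. For the mock, the titles conflict over the treatment itself. They call the lanes of mock library I and 1 lane of mock library II treated. The other lane of mock library II and those of mock library III are titled as mock. So are 1 lane of 12 h library II and the lanes of 12 h library III. The grouping follows the library name, which the columns of the deposited counts also carry. All comparisons with the mock therefore rest on that name. At 36 h, at 0 h and in the mock, libraries I and II were much more alike than either was to library III. At 36 h, the counts of I and II differed by a chi-square of 10.65 per degree of freedom, against 69.96 for I and III and 68.06 for II and III. At 0 h the same pairs gave 2.17, 41.07 and 34.91. The lanes of a single library gave 15.8 to 18.8 at 36 h and 16.2 to 26.5 at 0 h, so I and II differed by more than sampling noise but less than a library differed from itself between lanes. The sample titles carry replicate codes (BR and TR), but the lanes of each 36 h and 0 h library have different BR numbers. The codes therefore do not settle whether I, II and III came from separate plants. The p-values measure the spread between these libraries, which may be partly technical. The main values count I and II as separate libraries, and the effect of counting them as 1 is given beside the calls.

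At 36 h, 996 genes were higher and 1066 were lower than at 0 h. Of 23753 genes tested, these are 4.19% and 4.49%, together 8.68%, at an adjusted p below 0.05 in the quasi-likelihood test of edgeR, with p-values adjusted by Benjamini-Hochberg over all genes. Without adjustment, 6784 genes had p below 0.05. The median log2 fold change was 0.97 over the higher genes and −0.92 over the lower ones, beside 0.02 over all genes. Changes under 2-fold made up 511 of the higher and 580 of the lower genes. At least 4-fold changes numbered 168 upward and 106 downward, and at least 8-fold changes 69 upward and 20 downward. Library III stood apart for the large changes: the 168 genes had median levels of 5.84, 6.27 and 13.5 CPM (reads scaled to library size) in 36 h libraries I, II and III, against 1.20, 1.21 and 0.808 CPM at 0 h. The 106 genes had medians of 1.74, 1.85 and 0.763 CPM at 36 h, against 9.32, 10.5 and 6.79 CPM at 0 h. In bulk roots, fewer cells of a type and less RNA per cell cannot be told apart. The levels of 981 of the 996 higher genes were above all 0 h libraries in every 36 h library, an arrangement that 19.1% of all genes had. Likewise, 1050 of the 1066 lower genes were below all 0 h libraries, as were 18.4% of all genes. These last counts come from the same libraries that gave the calls and are a description.

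**Figure D1:**
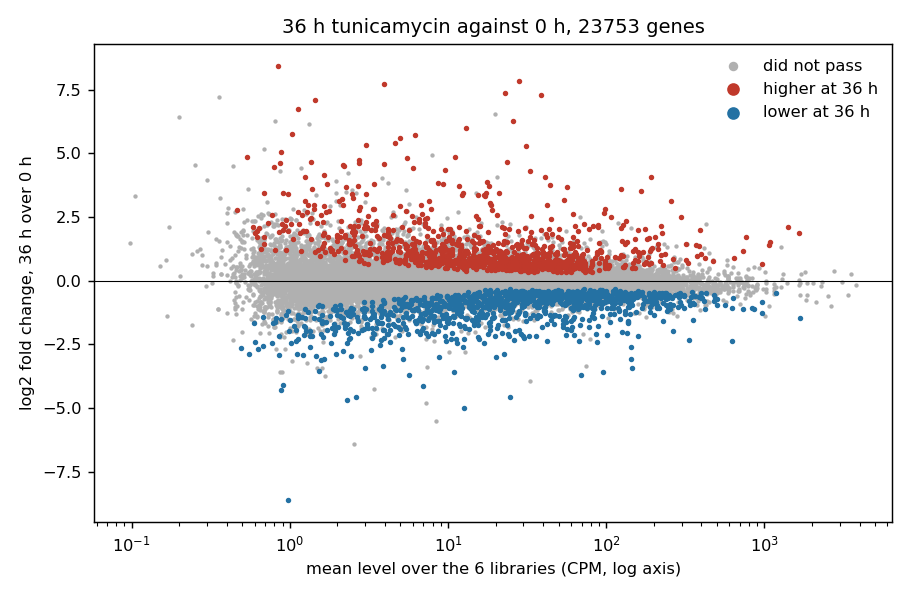
Each point is 1 of 23753 genes, with its mean level over the 6 libraries in CPM on a log axis and its log2 fold change at 36 h over 0 h. Red points are the 996 genes higher at 36 h, blue points the 1066 lower ones, and grey points did not pass an adjusted p below 0.05. Both lists run across the whole range of levels, and many called genes lie within 1 log2 unit of the zero line.

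The number of calls rested heavily on single libraries. Without 0 h library I, 249 genes were higher and 231 lower, and without 0 h library II, 266 and 233. Without 0 h library III there were 2015 higher and 1472 lower. Leaving out 36 h library I left 556 higher and 369 lower, leaving out II left 620 and 435, and leaving out III left 408 and 410. A core of 210 higher and 161 lower genes passed in all 6 of these fits. With libraries I and II of each group summed and counted as 1 sample, 5 genes were higher and 0 lower in edgeR, the smallest adjusted p was 0.0115, and 3391 genes had an unadjusted p below 0.05. In that fit, 964 of the 996 and 991 of the 1066 genes had an unadjusted p below 0.05 in their own direction, and the medians of the lists were 0.99 and −0.89. The lists were called on the same reads, so these counts and medians are largely built in and are no test. DESeq2, run on the 6 libraries as they stand within the model of 8 groups, gave 1592 higher and 1913 lower genes, among them 990 of the 996 and 1065 of the 1066.

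**Figure D2:**
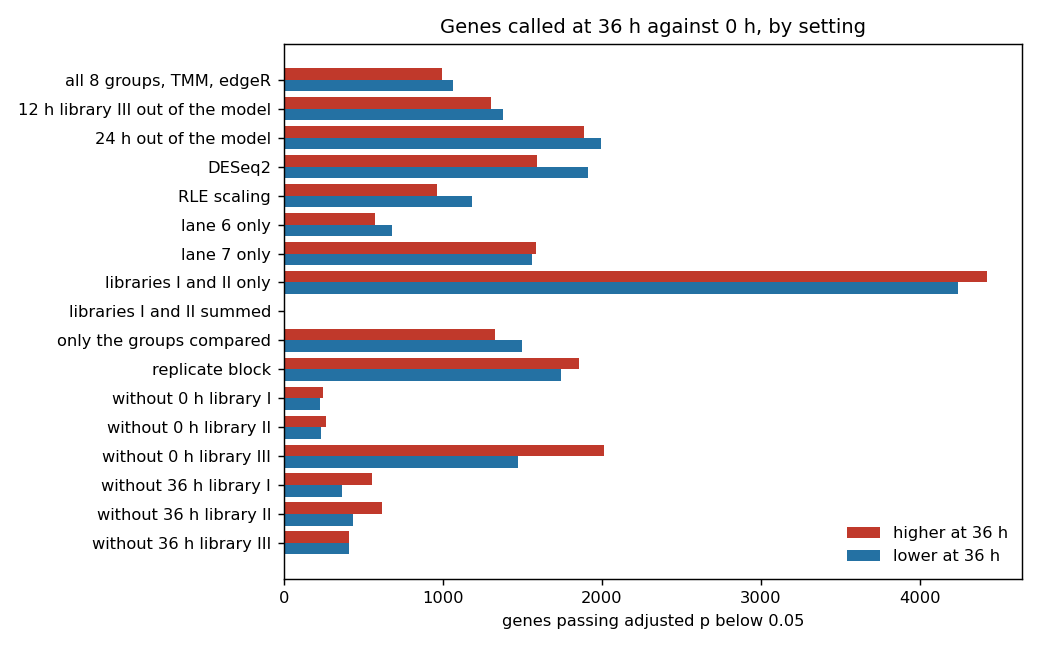
Bars give the number of genes passing an adjusted p below 0.05 at 36 h against 0 h, red for higher and blue for lower at 36 h, with 1 pair of bars for each way of fitting the data. The count runs between 5 higher and 0 lower genes with libraries I and II summed and 4423 higher and 4239 lower with libraries I and II alone.

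The size of the change can be read library by library. The 996 higher genes had median levels of 22.28, 22.04 and 27.44 CPM in 36 h libraries I, II and III, against 11.56, 11.21 and 12.34 CPM in 0 h libraries I, II and III. Library III was the highest of the 36 h libraries and all of them lay above all 0 h libraries. The 1066 lower genes had median levels of 18.67, 18.51 and 17.35 CPM at 36 h, against 35.11, 35.83 and 31.95 CPM at 0 h. In the 9 pairings of a 36 h with a 0 h library, the median log2 difference ran between 0.80 and 1.09 for the higher genes and between −0.99 and −0.71 for the lower ones. The lists were called on these libraries, so the separation is a description of its size.

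**Figure D3:**
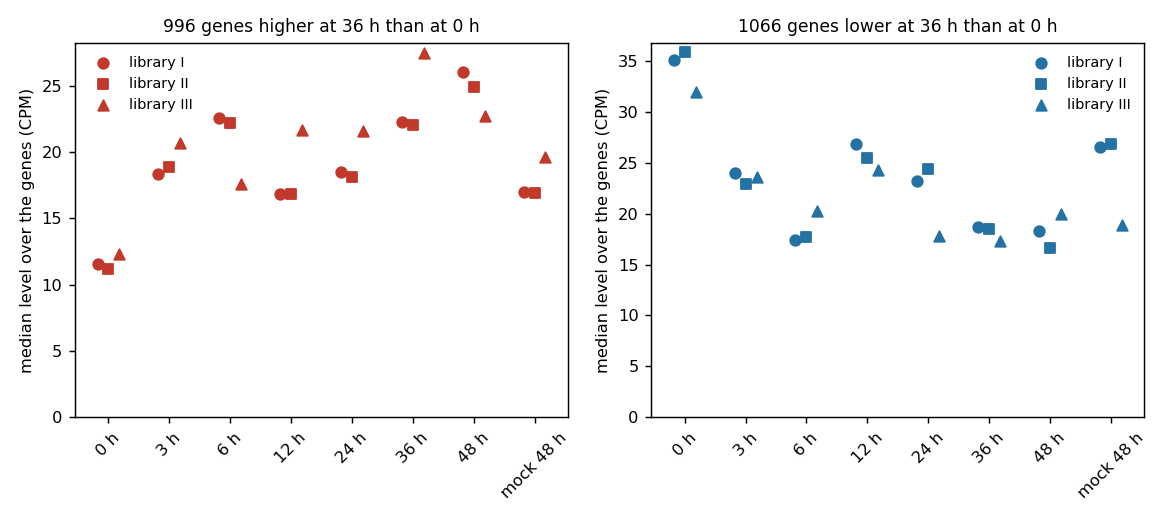
Each point is the median level, in CPM, of the 996 genes higher at 36 h (left) or the 1066 genes lower at 36 h (right) in 1 library, with the groups in order of time and the mock last, and the marker shape giving the library number. The 36 h points lie above the 0 h points on the left and below them on the right, and mock library III lies nearer to the 36 h points than the other mock libraries do.

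Mock roots stood between the 2 groups for these genes. The median level of the higher genes was 16.97, 16.89 and 19.65 CPM in mock libraries I, II and III, and that of the lower genes was 26.53, 26.87 and 18.93 CPM. The medians of the log2 fold changes were 0.52 and −0.55 for mock over 0 h, and 0.40 and −0.34 for 36 h over mock. These values share libraries with each other and are given side by side. The lists were chosen for the gap between 36 h and 0 h, so another group tends to fall between them by that choice. The group medians at 3, 12 and 24 h also lay between in both lists. Those at 6 h did so only for the higher genes, and those at 48 h in neither list. At 36 h against mock, 236 genes passed in edgeR's test, 0.994% of all, with 160 higher (0.674%) and 76 lower (0.32%). Of the genes higher than at 0 h, 117 of 996 (11.7%) were also higher than in the mock, and of the lower ones 57 of 1066 (5.35%) were also lower than in the mock. None of the 996 was lower than in the mock and none of the 1066 was higher. Both comparisons use the same 36 h libraries. These overlaps and the lack of opposite calls are thus in part built in and are no test. The mock was taken at 48 h, so it also differs from 36 h in time. Without mock library III the balance of calls at 36 h against mock turned, with 114 higher and 133 lower. With only both groups in the model, 278 were higher and 65 lower. The total against mock was 93 without mock library I, 88 without mock library II, 129 without 36 h library I, 114 without 36 h library II and 384 without 36 h library III. DESeq2 called 632 genes, and 3 passed with I and II summed.

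The genes that passed against both 0 h and the mock can be followed over the whole time course. The 117 higher genes had a median level of 14.4, 17.3, 17.3, 33.4, 34.1, 43.9 and 34.7 CPM after 0, 3, 6, 12, 24, 36 and 48 h of tunicamycin, and 12.5 CPM in the mock. Their median was thus low through 6 h, high by 12 h and at its highest at 36 h, and the mock stayed near the 0 h level. The 57 lower genes had medians of 38.9, 27.5, 18.5, 19.3, 21.3, 13.8 and 18.3 CPM over the same times, and 38.7 CPM in the mock. The full list of 996 had medians of 11.82, 19.57, 20.49, 19.03, 20.17, 24.70 and 24.91 CPM over the same times, and 18.31 CPM in the mock. The full list of 1066 had medians of 34.42, 23.50, 18.53, 25.82, 22.42, 18.66 and 18.33 CPM, and 24.54 CPM in the mock. The values at 0 h, at 36 h and in the mock chose the 117 and 57 genes, so those levels are no test.

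Comparisons of the other tunicamycin times with the mock share no library with 36 h against 0 h, although all share 1 estimate of the spread. At 48 h against mock, the log2 fold change had a median of 0.40 over the genes higher at 36 h and −0.37 over the lower ones, beside 0.00 over all genes. The sign followed the list for 948 of the 996 and for 1027 of the 1066 genes. In edgeR's test, 73 of the 996 were higher at 48 h, where 0.337% of all genes passed in that direction, and 1 was lower. Of the 1066, 24 were lower, where 0.135% of all genes passed in that direction, and 0 were higher. By their medians, genes with a larger change at 36 h also had a larger one at 48 h. Genes changed at least 2-fold at 36 h had medians of 0.73 and −0.65 at 48 h over mock, and those changed at least 4-fold had 1.38 and −1.33. In all, 112 genes passed at 48 h against mock. Without mock library I or II there were 38 and 41, without 48 h library I, II or III there were 37, 38 and 192, and with I and II summed there were 3.

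Values at the earlier times differed from one time to the next. At 24 h against mock the medians were 0.11 and −0.10. There, 141 of the 996 were higher and 14 lower, and 80 of the 1066 were lower and 31 higher, while 4.76% of all genes passed upward and 2.15% downward. At 12 h the medians were 0.07 and 0.09, with 84 of the 996 higher and 14 lower, and 18 of the 1066 lower and 5 higher (0.808% of all genes upward and 0.408% downward). At 6 h the medians were 0.19 and −0.34, with 13 of the 996 higher and 0 lower, and 30 of the 1066 lower and 0 higher (0.0589% upward and 0.219% downward). At 3 h they were 0.06 and −0.04, with 26 of the 996 higher and 2 lower, and 5 of the 1066 lower and 4 higher (0.606% upward and 0.147% downward). The genes lower at 36 h were thus also below the mock at 6 h by their median, but not at 12 h. Whether the times differ in this respect was not tested. The mock was taken at 48 h, so here the drug and the time spent in the bottles cannot be told apart. A median near 0 against the mock does not mean no change from 0 h. At 3 h against 0 h, the medians were 0.59 over the 996 and −0.57 over the 1066. The 0 h libraries also chose the lists, so those values are a description.

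**Figure D4:**
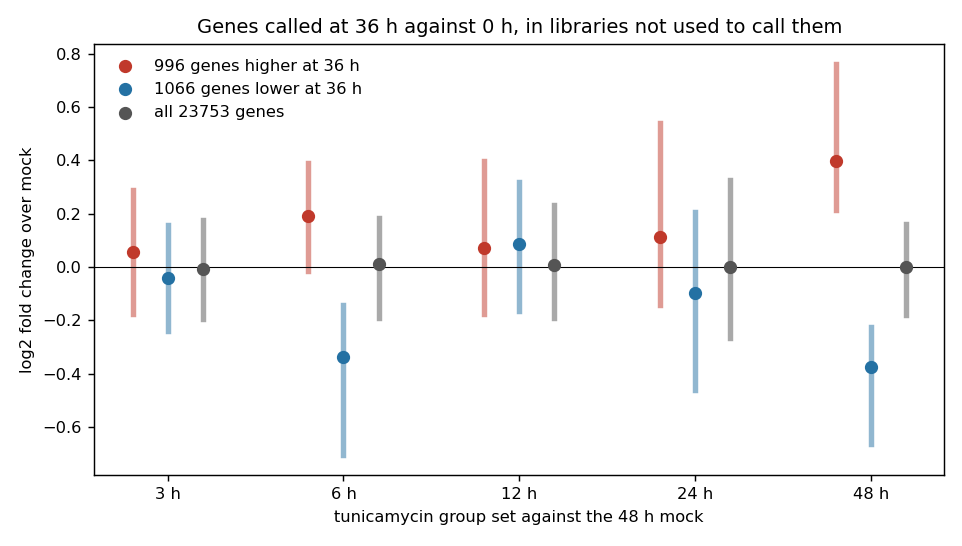
Points are median log2 fold changes of each tunicamycin group over the 48 h mock, for the 996 genes higher at 36 h (red), the 1066 lower (blue) and all 23753 genes (grey), and lines span their interquartile range. At 48 h the red and blue lines lie wholly on opposite sides of zero, with medians of 0.40 and −0.37, whereas at 3 h and 12 h both medians are within 0.10 of zero. The mock was taken at 48 h, so the groups of 3 to 24 h also differ from it in time.

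The direction of change went with the level of the gene per kilobase of its recovered length. When genes were ranked by their mean CPM per kilobase over the 6 libraries and split into 4 equal classes, the share called higher was 4.31%, 4.36%, 4.11% and 3.99% in order of rising level. The share called lower was 2.07%, 2.91%, 4.18% and 8.79%. The median log2 fold change in the same order was 0.15, 0.09, 0.02 and −0.14. The median length of these classes was 4112, 3961, 3688 and 2594 bp, so this trend and the one with length were not separated. Whether the recovered lengths include introns was not checked. The 100 genes with the highest level per kilobase at 0 h included 0 that passed as higher in edgeR and 23 that passed as lower, where 4.19% and 4.49% of all genes passed, with a median log2 fold change of −0.50. Together those 100 genes took 6.95% to 7.63% of CPM in the 36 h libraries, against 8.31% to 10.2% in the 0 h libraries. In 53 of them the levels at 36 h were below all 0 h libraries, and in 3 they were above, as in 18.4% and 19.1% of all genes. Since the 0 h values chose these 100 genes, a lower value elsewhere is in part built in.

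Some of the called genes were near silence at one of the times. Of 639 genes under 1 CPM in all 0 h libraries, 86 (13.5%) were higher at 36 h, where 4.19% of all genes were, with a median level of 2.29 CPM at 36 h against 0.327 CPM at 0 h. The largest of them averaged 77.0 CPM at 36 h, and 3 reached 5 CPM in every 36 h library. Of the 86, 39 were also under 1 CPM in all mock libraries, and 13 passed as higher than the mock, where 0.674% of all genes did. In the other direction, 532 genes were under 1 CPM in all 36 h libraries and 65 of these (12.2%) were lower than at 0 h, where 4.49% of all genes were, with medians of 0.466 CPM at 36 h against 1.95 CPM at 0 h. Among these 65, 7 were also lower than the mock, where 0.32% of all genes were, and 1 had reached 5 CPM in every 0 h library. Both classes were chosen on levels that enter the comparison, which favours one direction, so their shares are a description. The counts against the mock use the same 36 h libraries and are a description too. Every listed gene has at least 152 reads summed over the 24 libraries, so genes silent throughout are not covered.

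The lists also differed in gene length. The median length was 4090 bp for the higher genes and 2361 bp for the lower ones, beside 3513 bp for all genes. In 4 length classes of 132 to 1788, 1789 to 3513, 3514 to 6003 and 6004 to 128402 bp, the share called higher was 3.38%, 3.76%, 4.46% and 5.17%, and the share called lower was 6.90%, 5.61%, 3.86% and 1.58%. The median log2 fold change in the same classes was −0.13, −0.05, 0.02 and 0.17 at 36 h over 0 h. It was −0.13, −0.03, 0.04 and 0.13 for mock over 0 h, −0.03, −0.03, −0.02 and 0.05 at 36 h over mock, and −0.11, −0.04, 0.01 and 0.07 at 48 h over mock. Over the 9 pairings of a 36 h with a 0 h library, the median ran between −0.24 and 0.02 in the shortest class. In the longest class it ran between 0.02 and 0.27. By the fitted medians, the trend with length was about as large between mock and 0 h as between 36 h and 0 h libraries. It was smaller between 36 h and mock. At 48 h over mock, where the lists were followed above, it ran in the same direction. Its part in the calls was not tested.

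Of the higher genes, 170 also lay above all 0 h libraries, passed when each of the 6 libraries was left out and met the minimum levels, as did 133 of the lower genes on the other side. Among these, the identifiers with the largest fold changes are given. Passing with a library left out and the lack of overlap were part of the choice, so for these genes they are no test. Zm00001d021120 (4484 bp) had 383, 379 and 323 CPM in 36 h libraries I, II and III, against 21.1, 21.6 and 21.8 CPM in the 0 h libraries. All 36 h libraries were far above all 0 h libraries. Its mean was 362 ± 33.7 CPM at 36 h and 21.5 ± 0.374 CPM at 0 h (SD, n = 3 libraries each), with a log2 fold change of 4.07 (SE 0.31, adjusted p = 2.65e-07 in edgeR). Against the mock, at 19.2 ± 1.78 CPM, the log2 fold change was 4.23 (adjusted p = 1.65e-07 in edgeR). Over 0, 3, 6, 12, 24, 36 and 48 h its mean was 21.5, 54.3, 164, 619.8, 512, 362 and 315 CPM. At 36 h it was thus past its highest mean, which was at 12 h, although 36 h against 12 h gave a log2 fold change of −0.78 (SE 0.27) with an adjusted p of 0.289 in edgeR. The 12 h libraries I, II and III held 748.8, 783.3 and 327.1 CPM. Among libraries numbered III the highest was at 24 h (417.4 CPM), and 36 h (323 CPM) was close to 12 h. It passed at 36 h against 0 h in every fit tried, also with I and II summed (adjusted p = 0.0115 in edgeR).

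Zm00001d038950, a short gene of 480 bp, had 6.68, 9.22 and 32.5 CPM in 36 h libraries I, II and III, against 1.57, 1.21 and 0.646 CPM in the 0 h libraries. The groups did not overlap, but library III at 36 h was several times as high as I and II. Its mean was 16.1 ± 14.2 CPM at 36 h and 1.14 ± 0.465 CPM at 0 h (SD, n = 3 libraries each), with a log2 fold change of 3.83 (SE 0.67, adjusted p = 0.00243 in edgeR). Without 36 h library III the log2 fold change was 2.81 (adjusted p = 0.0155 in edgeR). The mock held 6.24 ± 2.69 CPM, and 36 h against mock did not pass (log2 fold change 1.37, adjusted p = 0.328 in edgeR). With I and II summed, the adjusted p at 36 h against 0 h was 0.131 in edgeR.

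Zm00001d007285 (1512 bp) had 2.26, 1.81 and 1.92 CPM in 36 h libraries I, II and III, against 26.2, 27.7 and 88.7 CPM in the 0 h libraries. The 36 h libraries were close together and all below the 0 h libraries, of which III was the highest. Its mean was 1.99 ± 0.233 CPM at 36 h and 47.5 ± 35.7 CPM at 0 h (SD, n = 3 libraries each), with a log2 fold change of −4.57 (SE 0.69, adjusted p = 0.000857 in edgeR). Without 0 h library III the log2 fold change was −3.75 (adjusted p = 0.00347 in edgeR). It was also lower than in the mock, which held 26.6, 25.3 and 14.1 CPM in I, II and III (log2 fold change −3.46, adjusted p = 0.0109 in edgeR). The low level was not kept at 48 h in the same measure: the 48 h group held 14.2 ± 7.23 CPM, although 48 h against 36 h gave a log2 fold change of 2.83 (SE 0.65) with an adjusted p of 0.232 in edgeR. With I and II summed, the adjusted p at 36 h against 0 h was 0.112 in edgeR.

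Zm00001d032083 (1507 bp) had 27.4, 26.3 and 20.2 CPM in 36 h libraries I, II and III, against 319.5, 306.5 and 169 CPM in the 0 h libraries. The groups did not overlap, and library III was the lowest in both. Its mean was 24.6 ± 3.90 CPM at 36 h and 265 ± 83.2 CPM at 0 h (SD, n = 3 libraries each), with a log2 fold change of −3.43 (SE 0.71, adjusted p = 0.00823 in edgeR). The mock libraries were split, with 150.2, 146 and 12.8 CPM in I, II and III. Mock library III thus lay below all 36 h libraries, and 36 h against mock did not pass (log2 fold change −2.06, adjusted p = 0.182 in edgeR). The 48 h group held 26.9 ± 17.3 CPM. With I and II summed, the adjusted p at 36 h against 0 h was 0.242 in edgeR.

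The genes most like each of these over the 8 group means were counted at a Pearson r of at least 0.9 on log2 levels. There were 94 such genes for Zm00001d021120, 67 of them among the 996, and 72 for Zm00001d038950, 52 of them among the 996. For Zm00001d007285 there were 29, of which 15 were among the 1066, and for Zm00001d032083 there were 131, of which 63 were. Of all genes, 4.19% were among the 996 and 4.49% among the 1066. The 8 groups include 36 h and 0 h, so part of the likeness is the contrast by which the genes were called.

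**Figure D5:**
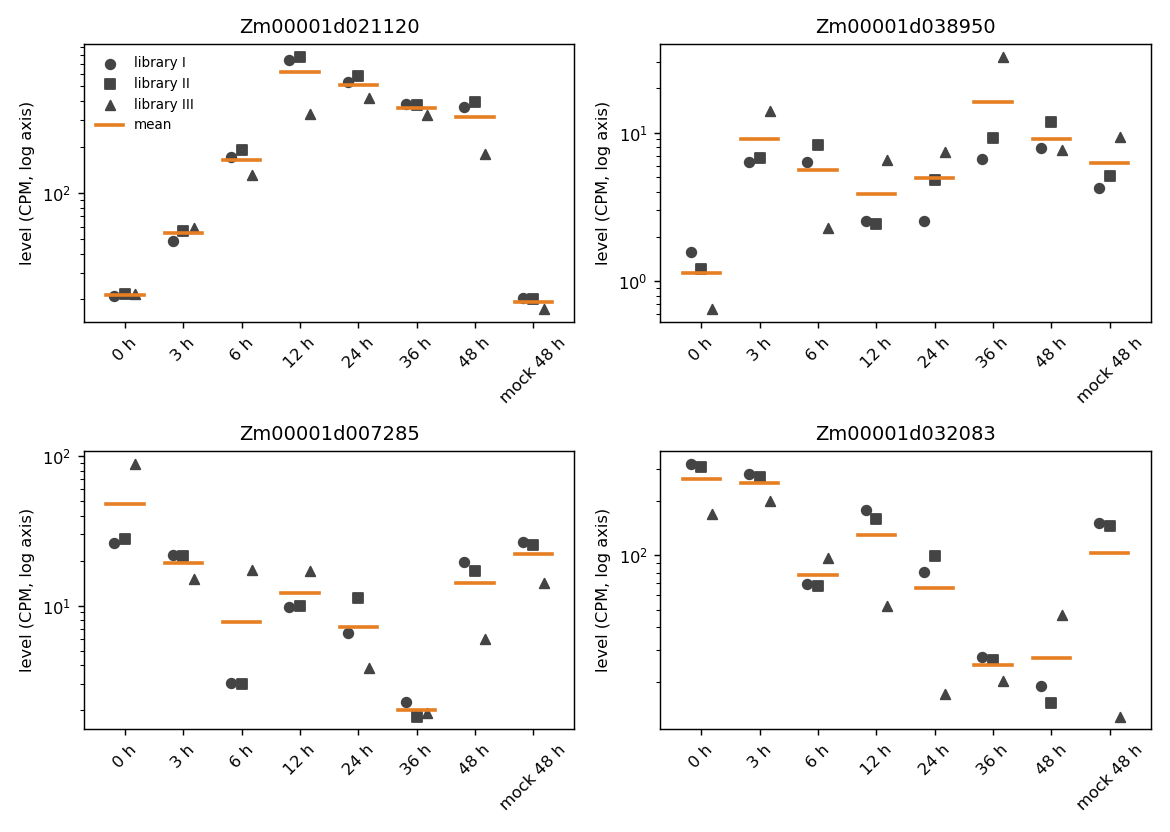
Levels in CPM on a log axis for 4 genes, with 1 point for each library, marker shape for the library number and a line for the mean of 3 libraries. Zm00001d021120 rises through 12 h and stays high at 36 h while the mock is at the 0 h level. The other genes show libraries of 1 group far apart, such as mock library III of Zm00001d032083.

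Set against its neighbours in time, 36 h was hard to tell from 12 h and from 48 h. At 36 h against 12 h, 0 of 23753 genes passed in edgeR (0%), with 2748 at an unadjusted p below 0.05 and 198 called by DESeq2. At 48 h against 36 h, 0 genes passed in edgeR (0%), with 1484 at an unadjusted p below 0.05 and 47 called by DESeq2. A count of 0 does not show that the groups were alike, given the spread between libraries. The nearest library to 36 h library I was 36 h library II, at a root mean square log2 difference of 0.287, and the reverse held. The nearest library to 36 h library III was 48 h library I, at 0.492. For 36 h library II, the nearest library outside its own group was 12 h library III, at 0.516.

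At 36 h against 24 h, 2663 genes passed in edgeR (11.2%), more than against 0 h, but this count turned on the fit and on single libraries. With only those 2 groups in the model, 0 genes passed, and 0 passed on lane 7 alone, against 10386 on lane 6 alone. Of 24 h library II, only lane 6 was analysed. Without 24 h library II the count was 219, and without 24 h library III it was 6106. Without 36 h library I it was 1478, and without 36 h library II it was 142. DESeq2 called 3844 genes and the fit with I and II summed called 3. The lists from 0 h share the 36 h libraries with this comparison and are not read against it.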

How the data were processed

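RNA from maize roots was sequenced from both ends with TruSeq libraries, per the labels' protocols. The authors deposited read counts per gene for 24 libraries and RPKM per lane, per the file headers. The submitters' processing notes name STAR, featureCounts and edgeR without versions. The genome build and strand setting are not stated in those sources, so overlapping genes and gene copies are uncertain. Lane reads and lengths of genes were recovered by dividing the deposited RPKM into the counts, and 100% of lane values were whole within 0.001 reads. Lane 7 of 24 h library II was not analysed here. In the mock, the lanes of a library number carry different index names and were summed as in the deposited counts.

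Counts were tested with edgeR 4.0.16 in R 4.3.3, using quasi-likelihood tests, TMM scaling and 1 model of 8 groups of 3 libraries. The low-count filter removed 0 genes. SE is the log2 fold change divided by the root of F. CPM use TMM-scaled library sizes, and log2 CPM carry a prior count of 2. DESeq2 1.42.0 was an alternative. The steps were also run on simulated counts drawn independently for each library. That setting lacks the closeness of libraries I and II, so it does not show how far the calls hold here. No identifier of 23753 matched the 49888 genes of the reference table, so no gene name, position or sequence is given. The members and lists were chosen with earlier results of these data known.

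In each direction, the 2 genes of largest fold change are named. They had to pass the test, to pass it without each of the 6 libraries, to show no overlap between groups, and to average at least 1 CPM in both groups and 5 CPM over all 6. Library numbers paired 36 h with mock (correlations of deviations 0.23, 0.24 and 0.27 for I, II and III) and 48 h with mock (0.35, 0.17 and 0.29). That pairing comes from the data, and the labels do not explain the numbers. They did not pair 36 h with 0 h. Other fits left out each library, the 24 h group or 12 h library III, used 1 lane, other scaling or filters, a replicate block, or libraries I and II summed or alone. The fits with I and II alone and without 12 h library III were chosen after seeing the data.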

Additional observations from a re-analysis of the deposited data

How the results depend on the processing

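The numbers of genes higher and lower at 36 h than at 0 h were 996 and 1066. They were within 1.5 times of those values with RLE scaling (961 and 1182) and with only both groups in the model (1330 and 1495). The same held without 12 h library III in the model (1306 and 1379). No filter, or a filter of at least 1 CPM in 3 libraries, left the same 23753 genes. Those fits repeat the main one and are no check. The numbers were 1886 and 1992 in a model without the 24 h group, and 1592 and 1913 by DESeq2. On lane 6 alone they were 576 and 680, and on lane 7 alone 1585 and 1558. With libraries I and II alone they were 4423 and 4239, and with I and II summed 5 and 0. With a replicate block for library number they were 1858 and 1744, although the numbers did not pair 36 h with 0 h (correlations of deviations 0.03, −0.02 and 0.00). Leaving out each library gave 249 to 2015 higher and 231 to 1472 lower.

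At 36 h against mock (236), the count was 434 without 12 h library III in the model, 632 by DESeq2, 3 with I and II summed, and 88 to 384 on leaving out a library. At 48 h against mock (112), it was 169, 263 and 3 in the same order, and 37 to 192 on leaving out a library. The replicate block moved neither by over 1.5 times. At 36 h against 24 h (2663), it was 10386 using lane 6, 0 using lane 7, 3 with I and II summed, 0 with only both groups in the model, and 142 to 6106 on leaving out a library. Where 24 h is left out of the model, no value exists for that comparison. With genes changed at least 2-fold, the list medians at 48 h over mock were 0.73 and −0.65. The fold changes of the 4 named genes kept their sign in all fits. They were chosen for no overlap and for passing without each library, so a kept sign is largely built in. The balance of calls was not kept. At 36 h against mock it was 114 higher and 133 lower without mock library III, against 160 and 76 with it. At 36 h against 0 h the lower genes were more numerous in some fits and the higher ones in others. The cause of these shifts was not tested. Depth was not thinned, and counting error is small beside the spread between libraries except for genes near 1 CPM.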
